A study of Mus musculus with 9 samples.

Results

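The genes described here are markers of lipid-associated macrophages, read in whole liver of mice with fatty liver disease and of lean controls. The list holds 10 genes, namely Trem2, Gpnmb, Cd9, Spp1, Fabp5, Itgax, Cd68, Atp6v0d2, Lgals3 and Tyrobp. A member was taken as every non-control probe of the array whose RefSeq accession belongs to one of these symbols. This gave 10 probes for 9 of the 10 genes, out of 55681 distinct probes and 20972 named genes. Cd68 matched no probe by this rule and was not analysed here. Of the 10 probes, 9 were tested, 1 for each gene, and the other was a dim probe for Atp6v0d2.

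Total liver RNA of male mice aged 20 weeks was measured on 1-colour microarrays, with 1 array per mouse and 3 mice in each of 3 groups. STAM mice are C57B/6J males given streptozotocin, which kills insulin-secreting beta cells, as newborns and then a high-fat diet, and they go on from steatohepatitis to liver cancer. Mice of the STAM-NON group were untreated STAM mice, and mice of the STAM-INS group were STAM mice that received subcutaneous insulin glargine. Normal mice had neither streptozotocin nor the high-fat diet, so that both differ together between STAM and Normal. The sources used here do not say whether tumour tissue was part of the liver samples.

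Lipid-associated macrophages are cells that gather in fatty tissue, including steatotic liver, and take up and break down lipid. Trem2 is a surface receptor that binds lipids and lipoproteins and signals through the adaptor Tyrobp (DAP12), which carries the motif that recruits the kinase Syk. The other members serve lysosomes (Gpnmb, Atp6v0d2, Cd68), lipid transport within the cell (Fabp5), adhesion and membrane organisation (Itgax, Cd9), or are secreted (Spp1, Lgals3). Some are made outside macrophages too: Spp1 by bile duct cells, and Fabp5, Cd9 and Lgals3 by several epithelial cells and tumours. In whole tissue a lower signal from fewer cells of a type and one from less RNA per cell cannot be told apart, and the same holds for a higher signal.

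Promoter sequence is shown for the members called higher in STAM-NON that hold one of 4 motifs searched on both strands (Trem2, Spp1 and Itgax), and for Gpnmb, which was above background in STAM-NON and not in Normal and holds none of them. Each run is the 250 bases before the RefSeq start site in GRCm38.p6, written 5' to 3' on the strand of the gene, and Spp1 has 2 such windows of which the first is given. Capitals mark GAGGAAG, a core site of PU.1, the myeloid factor, or TGACTCA, the AP-1 site, on either strand.
Trem2, chr17:48346151-48346400, plus strand: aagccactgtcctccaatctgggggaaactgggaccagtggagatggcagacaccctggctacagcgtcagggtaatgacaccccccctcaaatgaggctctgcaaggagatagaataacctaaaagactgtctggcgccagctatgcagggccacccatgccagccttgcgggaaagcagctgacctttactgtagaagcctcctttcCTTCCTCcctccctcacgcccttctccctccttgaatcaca
Spp1, chr5:104434861-104435110, plus strand: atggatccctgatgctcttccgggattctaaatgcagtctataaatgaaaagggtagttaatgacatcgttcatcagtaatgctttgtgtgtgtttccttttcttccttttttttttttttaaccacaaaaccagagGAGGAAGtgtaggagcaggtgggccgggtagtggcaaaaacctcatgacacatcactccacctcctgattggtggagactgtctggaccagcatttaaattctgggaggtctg
Itgax, chr7:128129300-128129549, plus strand: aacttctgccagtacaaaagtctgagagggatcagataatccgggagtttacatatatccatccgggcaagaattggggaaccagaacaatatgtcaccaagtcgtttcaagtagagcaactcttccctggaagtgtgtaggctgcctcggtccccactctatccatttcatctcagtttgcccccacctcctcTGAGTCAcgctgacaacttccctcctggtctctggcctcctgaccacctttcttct
Gpnmb, chr6:49036268-49036517, plus strand: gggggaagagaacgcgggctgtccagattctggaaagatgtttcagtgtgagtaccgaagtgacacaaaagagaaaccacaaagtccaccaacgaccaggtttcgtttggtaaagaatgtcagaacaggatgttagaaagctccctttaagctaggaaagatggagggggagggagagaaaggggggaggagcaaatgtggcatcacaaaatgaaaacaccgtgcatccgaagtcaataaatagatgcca
GAGGAAG lay 41 bases before the start in Trem2 and 113 bases before it in Spp1, and 10.4% of 27025 promoters of this length held it. TGACTCA lay 56 bases before the start in Itgax and occurred at 2 places in the promoter of Cd68, against 4.43% of all promoters. The E-box CACGTG (6.05% of all promoters) and the M-box TCATGTG (3.22%), both read by the lysosomal factors of the Mitf and Tfeb family, were in none of the 7 member promoters in the table. A match is a stretch of letters and not a binding site, and no match says only that these letters are not in this window.

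Values below are centred log2 signals, that is, log2 of the background-subtracted spot signal after each array's own 75th percentile was subtracted. A spot as bright as that percentile has the value 0. Probes bind with different strength, so a level is read across mice and never against another probe. Differences are in log2 units with their standard error (SE) from limma, fitted to all 9 arrays. A difference was called when its Benjamini-Hochberg adjusted p over all 26277 tested probes was under 0.05. A probe was tested if it was well above background on all 3 arrays of at least 1 group. Of the 9 tested member probes, 7 were above background on all 9 arrays, Gpnmb entered through STAM-NON, and Atp6v0d2 entered through STAM-INS. All 6 STAM arrays lay on 1 slide and the 3 Normal arrays on another, so that slide and group cannot be told apart for any comparison with Normal. The position on the slide also differed, because the STAM-NON arrays lay in row 1 and the Normal arrays in row 2. Between 46.2% and 65.0% of spots were above background, with the 3 highest shares on STAM-NON replicates 1 and 3 (59.3% and 63.1%) and STAM-INS replicate 1. The 10 hepatocyte markers were above background on all 9 arrays, with list means from 8.37 to 8.88.

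In untreated STAM liver, 7 of the 9 measured markers were higher than in Normal liver, and none was lower. These were Trem2, Tyrobp, Cd9, Itgax, Spp1 and Lgals3, by 0.99 (Cd9) to 2.93 (Trem2), and Gpnmb, for which only a bound of at least 4.32-fold can be given because no Normal array had it above background. Gpnmb passed the filter only through STAM-NON, the group where it was high, so that its call adds no support of its own. Over all tested probes, 16.1% were called in this comparison, with 6.3% called higher and 9.76% called lower. The median difference of the 9 members, with Gpnmb included, was 1.77, beside -0.13 over all tested probes. Of the 7 members above background on all 9 arrays, 6 were called, and for all 7 every STAM-NON mouse lay above every Normal mouse, while 13.2% of all tested probes did so.

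**Figure D1:**
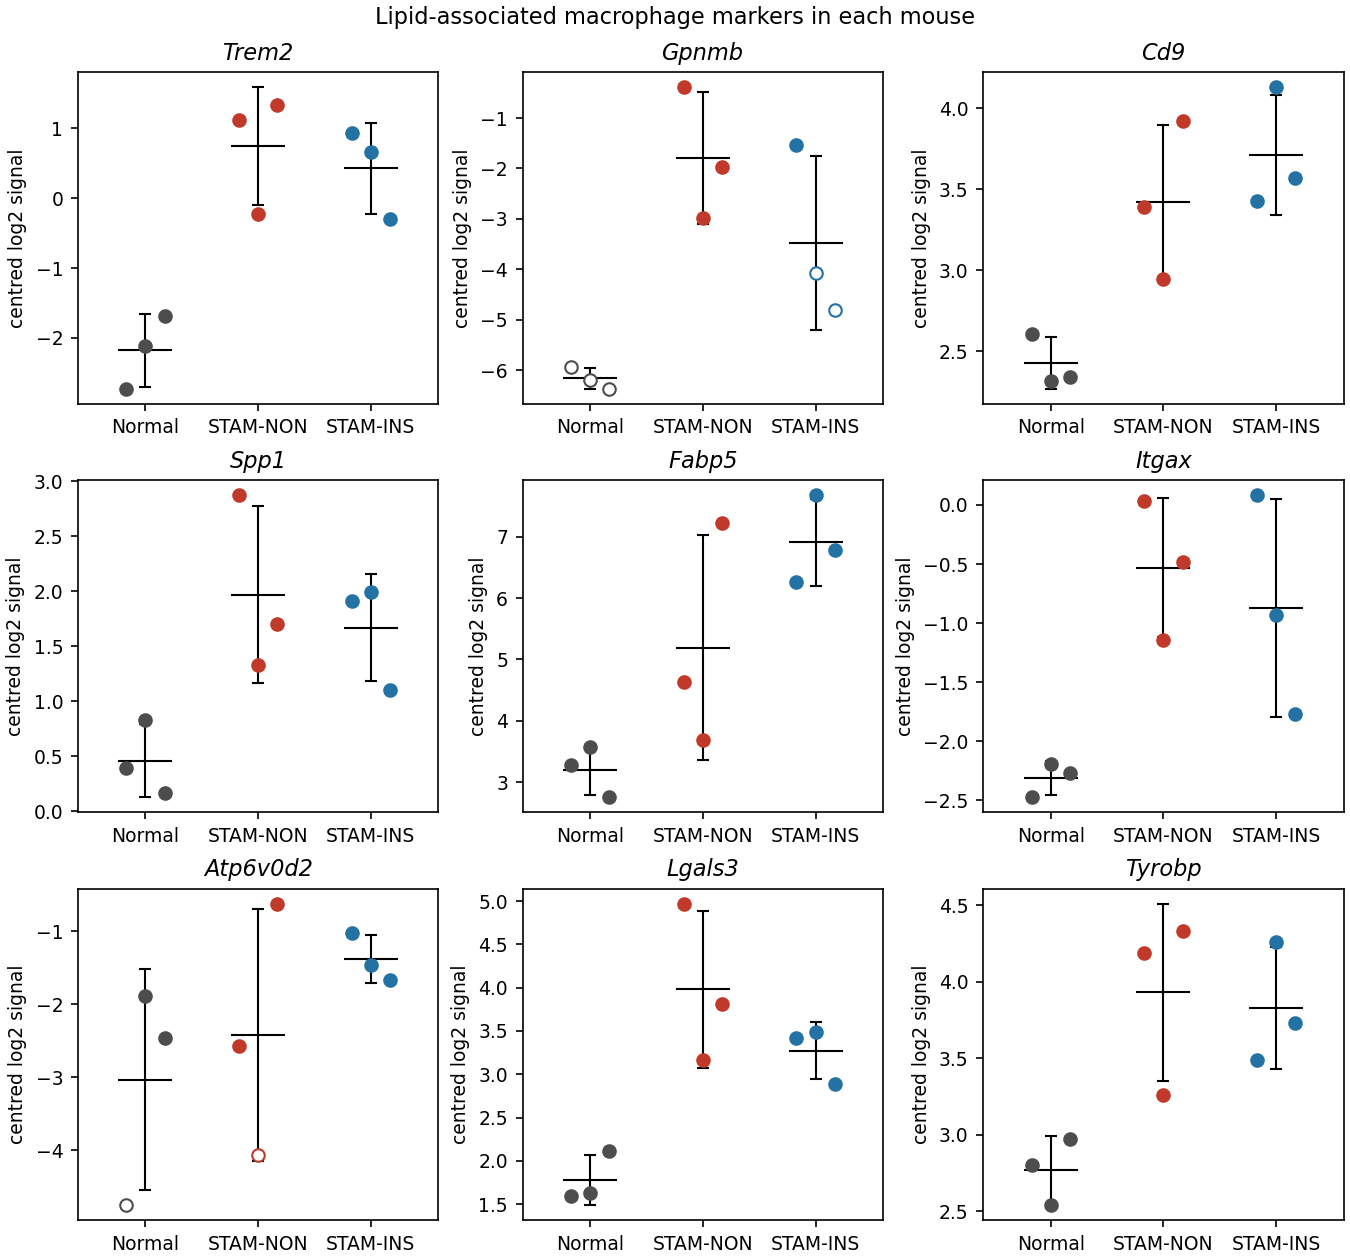
Centred log2 signal (y axis, each panel with its own range) of the 9 measured members in the 3 mice of each group; points are mice in the order of their replicate numbers, filled where the probe was well above background and open where it was not, and bars give the mean and SD. For Trem2 the Normal mice sit between -2.73 and -1.69 and all 6 STAM mice at or above -0.30, whereas for Atp6v0d2 STAM-NON and Normal overlap.

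The receptor and its adaptor come first. The centred log2 signal of Trem2 was 1.12, -0.22 and 1.33 in STAM-NON replicates 1 to 3, 0.94, 0.67 and -0.30 in STAM-INS replicates 1 to 3, and -2.73, -2.12 and -1.69 in Normal replicates 1 to 3. All 6 STAM mice were above all 3 Normal mice, and the lowest STAM mice were STAM-INS replicate 3 and STAM-NON replicate 2. Trem2 was higher in STAM-NON than in Normal by 2.93 (SE 0.48, adjusted p = 0.0122 by limma), or 7.6-fold. Tyrobp, the adaptor, measured 4.19, 3.26 and 4.33 in STAM-NON, 3.49, 4.26 and 3.73 in STAM-INS, and 2.80, 2.54 and 2.97 in Normal. Its 6 STAM values were again all above the Normal values, with STAM-NON replicate 2 the lowest of them. The difference of Tyrobp between STAM-NON and Normal was 1.16 (SE 0.31, adjusted p = 0.0387 by limma).

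Gpnmb is a transmembrane glycoprotein of lysosomes and melanosomes. Its signal was -0.39, -2.99 and -1.98 in STAM-NON, -1.54, -4.08 and -4.81 in STAM-INS, and -5.94, -6.19 and -6.37 in Normal. It was well above background on the 3 STAM-NON arrays and on STAM-INS replicate 1, but not on the other 2 STAM-INS arrays nor on any Normal array. On the processed scale its signal ranged from 30.2 to 229 in STAM-NON and from 2.73 to 4.01 in Normal. The level in STAM-NON was at least 4.32-fold higher than in Normal when each Normal array was set at its lowest signal well above background (measured difference 4.38, adjusted p = 0.0186 by limma). For STAM-INS against Normal no such limit can be given, because only 1 of the 3 STAM-INS arrays was above background (measured difference 2.69, adjusted p = 0.0729 by limma).

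Atp6v0d2 encodes the d2 subunit of the proton pump that acidifies lysosomes. The tested probe gave -2.57, -4.06 and -0.62 in STAM-NON, -1.02, -1.46 and -1.67 in STAM-INS, and -4.75, -1.88 and -2.46 in Normal. The STAM-NON and Normal values overlapped, each group having 1 array on which the probe was not above background, and the difference of 0.61 was not called (95% interval -1.51 to 2.73). Among the other 15 subunits of the same pump, 0 were called higher and 1 was called lower in STAM-NON than in Normal. That subunit was Atp6v0c, at -0.45 (SE 0.11, adjusted p = 0.0338 by limma), and the median of the 15 was -0.14. Atp6v0d1, the broadly expressed partner of Atp6v0d2, differed by -0.42 and was not called.

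Itgax, the CD11c integrin chain, measured 0.03, -1.14 and -0.48 in STAM-NON, -0.93 and -1.77 in STAM-INS replicates 2 and 3, and -2.47, -2.19 and -2.27 in Normal. STAM-INS replicate 1 reached 0.08, the highest of all 9 mice. The difference between STAM-NON and Normal was 1.77 (SE 0.45, adjusted p = 0.0348 by limma). Itgb2, the beta chain that pairs with Itgax, was also higher, by 1.19 (adjusted p = 0.048 by limma), and it was the one called gene among the 3 other tested chains of that integrin family. Itgam, the CD11b chain, differed by 0.01 on its brighter probe and by 0.83 on its dimmer one, where the groups did not overlap, and neither was called (adjusted p = 0.965 and 0.133 by limma).

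Cd9, a tetraspanin that organises receptors in the membrane, measured 3.39, 2.95 and 3.92 in STAM-NON, 3.43, 4.13 and 3.57 in STAM-INS, and 2.61, 2.32 and 2.34 in Normal. The 6 STAM mice were above the 3 Normal mice, and the difference between STAM-NON and Normal was 0.99 (SE 0.27, adjusted p = 0.0408 by limma). Of 10 other tetraspanins tested, 1 was called higher and 1 lower. The higher was Cd63, a lysosomal tetraspanin, by 2.84 (SE 0.54, adjusted p = 0.0164 by limma), and the lower was Cd82, by -0.52.

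The secreted members were Spp1 (osteopontin), a matrix cytokine, and Lgals3, the galactoside-binding galectin-3. Spp1 measured 2.87, 1.33 and 1.70 in STAM-NON, 1.91, 1.99 and 1.1 in STAM-INS, and 0.39, 0.83 and 0.17 in Normal. Its highest value, in STAM-NON replicate 1, was well apart from those of the other STAM mice, and the difference between STAM-NON and Normal was 1.5 (SE 0.41, adjusted p = 0.0422 by limma). Lgals3 measured 4.97, 3.16 and 3.81 in STAM-NON, 3.42, 3.49 and 2.89 in STAM-INS, and 1.60, 1.63 and 2.12 in Normal. Its highest value was in the same mouse, STAM-NON replicate 1, and the difference between STAM-NON and Normal was 2.20 (SE 0.41, adjusted p = 0.0164 by limma). Of the 9 tested receptor chains for osteopontin, 4 were higher in STAM-NON, with Itga4 at 1.55 (adjusted p = 0.0234 by limma), Itga9 at 0.97 and Cd44 at 0.89. Itgav was not called on its brighter probe, but its dimmer probe was called higher, by 0.51 (adjusted p = 0.0336 by limma). Of 6 other genes tested of the galectin family and its partners, 1 was higher, the galectin-3 binding protein Lgals3bp, by 1.06 (SE 0.19, adjusted p = 0.0152 by limma).

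Fabp5, which carries fatty acids in macrophages and epithelial cells, followed another order of mice. It measured 4.64, 3.69 and 7.23 in STAM-NON, 6.26, 7.67 and 6.78 in STAM-INS, and 3.28, 3.57 and 2.76 in Normal. STAM-NON replicate 2 lay close to the highest Normal mouse and replicate 1 between the Normal and the STAM-INS mice, whereas STAM-NON replicate 3 lay among the STAM-INS mice. The difference between STAM-NON and Normal was 1.98 (SE 0.80) and was not called (adjusted p = 0.118 by limma). The difference between STAM-INS and Normal was 3.70 (SE 0.80, adjusted p = 0.0233 by limma), the largest of the members in that comparison. Among 7 other fatty acid binding proteins tested, Fabp4, the adipocyte and macrophage form, was higher in STAM-NON than in Normal by 2.85 (adjusted p = 0.0344 by limma), as was Fabp7, by 1.33. In STAM-INS 0 of these 7 genes were called against Normal by limma (2 of them reached an unadjusted p under 0.05), and Fabp4 differed by 1.70 (adjusted p = 0.142 by limma).

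The number of calls depended on the mice in the fit, for the members as for all probes. The 7 members called, Gpnmb among them, became 2 without STAM-NON replicate 1, 3 without STAM-NON replicate 3, 1 without Normal replicate 1 or Normal replicate 2, and 2 without Normal replicate 3. In the same fits 5.82%, 7.2%, 4.28%, 4.2% and 3.56% of all tested probes were called, in place of 16.1%. When 1 mouse was left out, the difference of Trem2 ranged from 2.63 to 3.41 and that of Lgals3 from 1.7 to 2.6. That of Fabp5 moved more, from 0.96 to 2.73, and that of Atp6v0d2 from -0.29 to 1.43. With the row of the slide as a block, 0 of the 9 members and 0.0571% of all tested probes were called, and 4 members, Trem2, Cd9, Lgals3 and Tyrobp, had an unadjusted p under 0.05. Only STAM-INS had arrays in both rows, with replicate 1 alone in row 1, so that the row effect in that fit rests on this array. In that fit the difference was smaller than without the block for Trem2 (2.17), Lgals3 (1.97), Gpnmb (1.47), Spp1 (1.13), Itgax (0.35) and Atp6v0d2 (0.06), and larger for Fabp5 (2.95), Tyrobp (1.67) and Cd9 (1.42). Trem2 was called in each fit that left out 1 mouse in this comparison.

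Insulin-treated STAM mice were then set against Normal mice. The 7 members above background on all 9 arrays were higher in every STAM-INS mouse than in every Normal mouse, while 15.1% of all tested probes were. The values of Gpnmb and Atp6v0d2 did not overlap either, but Gpnmb was above background on 1 of these 6 arrays and Atp6v0d2 was tested through STAM-INS. Of the 9 members, 4 were called higher, beside 13.9% of all tested probes called with 5.16% called higher and 8.73% lower. These were Trem2 at 2.61 (SE 0.48, adjusted p = 0.0137 by limma), Cd9 at 1.28 (SE 0.27, adjusted p = 0.0203 by limma), Fabp5, given above, and Lgals3 at 1.48 (SE 0.41, adjusted p = 0.0485 by limma). The adjusted p of the other 5 lay between 0.0539 (Tyrobp) and 0.253 (Atp6v0d2). The median difference of the 9, with Gpnmb and Atp6v0d2 included, was 1.48, beside -0.09 over all tested probes. The 4 calls became 0 without STAM-INS replicate 2 or Normal replicate 1, and 1 without Normal replicate 2 or Normal replicate 3. In the same fits 3.76%, 5.26%, 5.69% and 4.63% of all tested probes were called, and the difference of Trem2 ranged from 2.34 to 2.98 and that of Fabp5 from 3.32 to 4.02 over the fits that left out 1 mouse. In row 2 of the slides, which held STAM-INS replicates 2 and 3 and the Normal mice, the 7 members above background on all arrays were higher in both STAM-INS mice than in the 3 Normal mice, by 2.36 for Trem2 and 4.02 for Fabp5, where 19.9% of all tested probes were. The comparisons with Normal share the 3 Normal arrays.

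**Figure D2:**
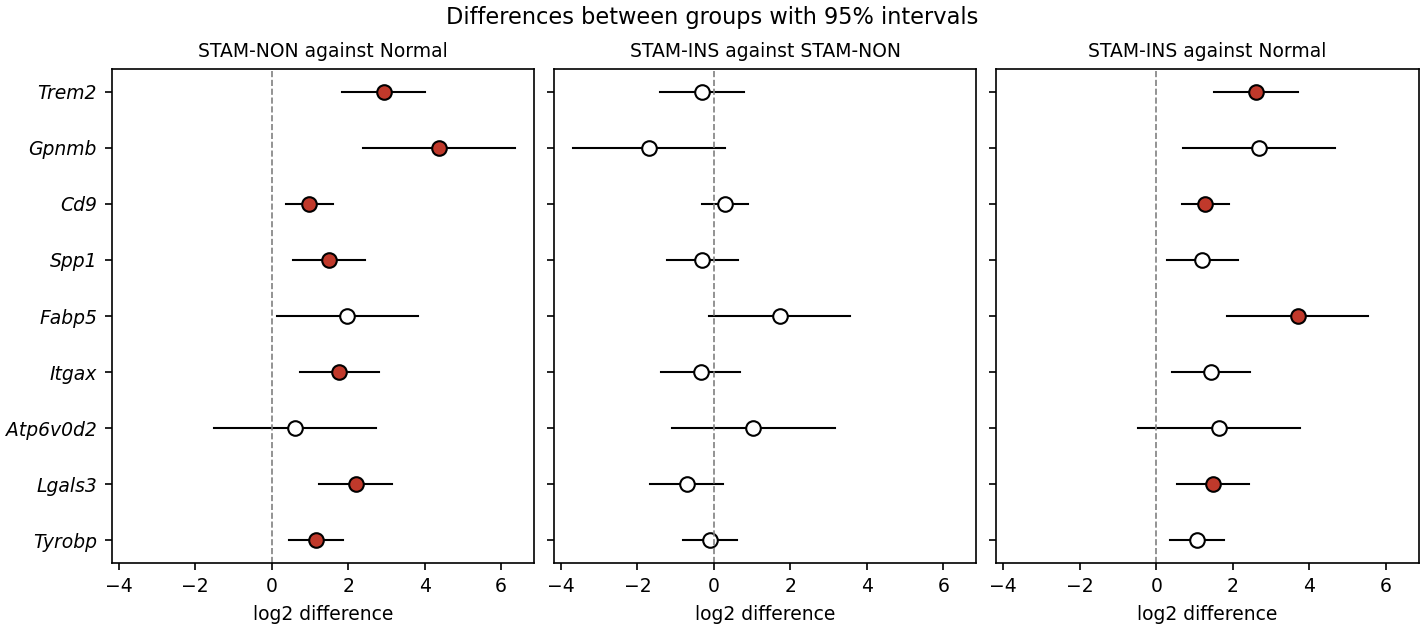
Log2 difference (x axis) of each member (y axis) in the 3 comparisons, with the 95% interval as a line; filled points were called at an adjusted p under 0.05 and open points were not. The filled points number 7, 0 and 4 from left to right, and in the middle panel every interval contains 0.

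Whether insulin changed these markers within STAM mice was asked by setting STAM-INS against STAM-NON, all on 1 slide. None of the 9 members was called, and 0 had an unadjusted p under 0.05, in limma or in an unpaired t test. The groups overlapped for all 9. Of all tested probes, 7.24% were higher and 4.92% lower in every STAM-INS mouse than in every STAM-NON mouse. Under other settings an unadjusted p under 0.05 in limma was reached by 2 members with median centring and by 2 without STAM-NON replicate 2. It was reached by 1 member with the replicate block, without STAM-NON replicate 3 or without STAM-INS replicate 1. Over all tested probes, 0.0913% were called in this comparison (24 probes), and 8.78% had an unadjusted p under 0.05. The largest differences pointed opposite ways. Gpnmb was lower in STAM-INS by -1.69 (95% interval -3.68 to 0.30, adjusted p = 0.62 by limma), and Fabp5 was higher by 1.72 (95% interval -0.12 to 3.56, adjusted p = 0.583 by limma). Lgals3 differed by -0.71 (95% interval -1.66 to 0.23) and Atp6v0d2 by 1.03 (95% interval -1.09 to 3.16). The remaining 5 members differed by less than 0.4 in either direction. Their 95% intervals were -1.41 to 0.78 for Trem2, -0.80 to 0.60 for Tyrobp, -0.32 to 0.90 for Cd9, -1.23 to 0.63 for Spp1 and -1.37 to 0.68 for Itgax. The interval of Trem2 holds a fall of over 1 log2 unit as well as a rise, so that these values do not show the STAM groups to be alike. The one STAM-INS array in row 1, replicate 1, was above the STAM-NON mean of that row for 6 of 9 members and above all 3 STAM-NON mice for Itgax.

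Mice of 1 group also differed among themselves. STAM-NON replicate 2 was the lowest of its group for 9 of 9 members and for 23.8% of all tested probes, and STAM-INS replicate 3 was the lowest of its group for 6 of 9 members and for 25.1% of all tested probes. STAM-NON replicate 2 was also the lowest of its group for the list means of general macrophage (1.32), Kupffer cell (2.59), monocyte (1.17), neutrophil (-0.05) and T and NK cell markers (0.44). STAM-NON replicate 1 was the highest of all 9 mice for 3 members, Gpnmb, Spp1 and Lgals3. STAM-NON replicate 3 was the highest for Trem2, Tyrobp and Atp6v0d2, STAM-INS replicate 2 for Cd9 and Fabp5, and STAM-INS replicate 1 for Itgax. The members thus did not share a single highest mouse. Over the 6 STAM arrays, 36 pairs of members had a median Pearson r of 0.55, from -0.41 for Gpnmb with Fabp5 to 0.93 for Spp1 with Lgals3, given as a description because the arrays also share slide and group.

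**Figure D3:**
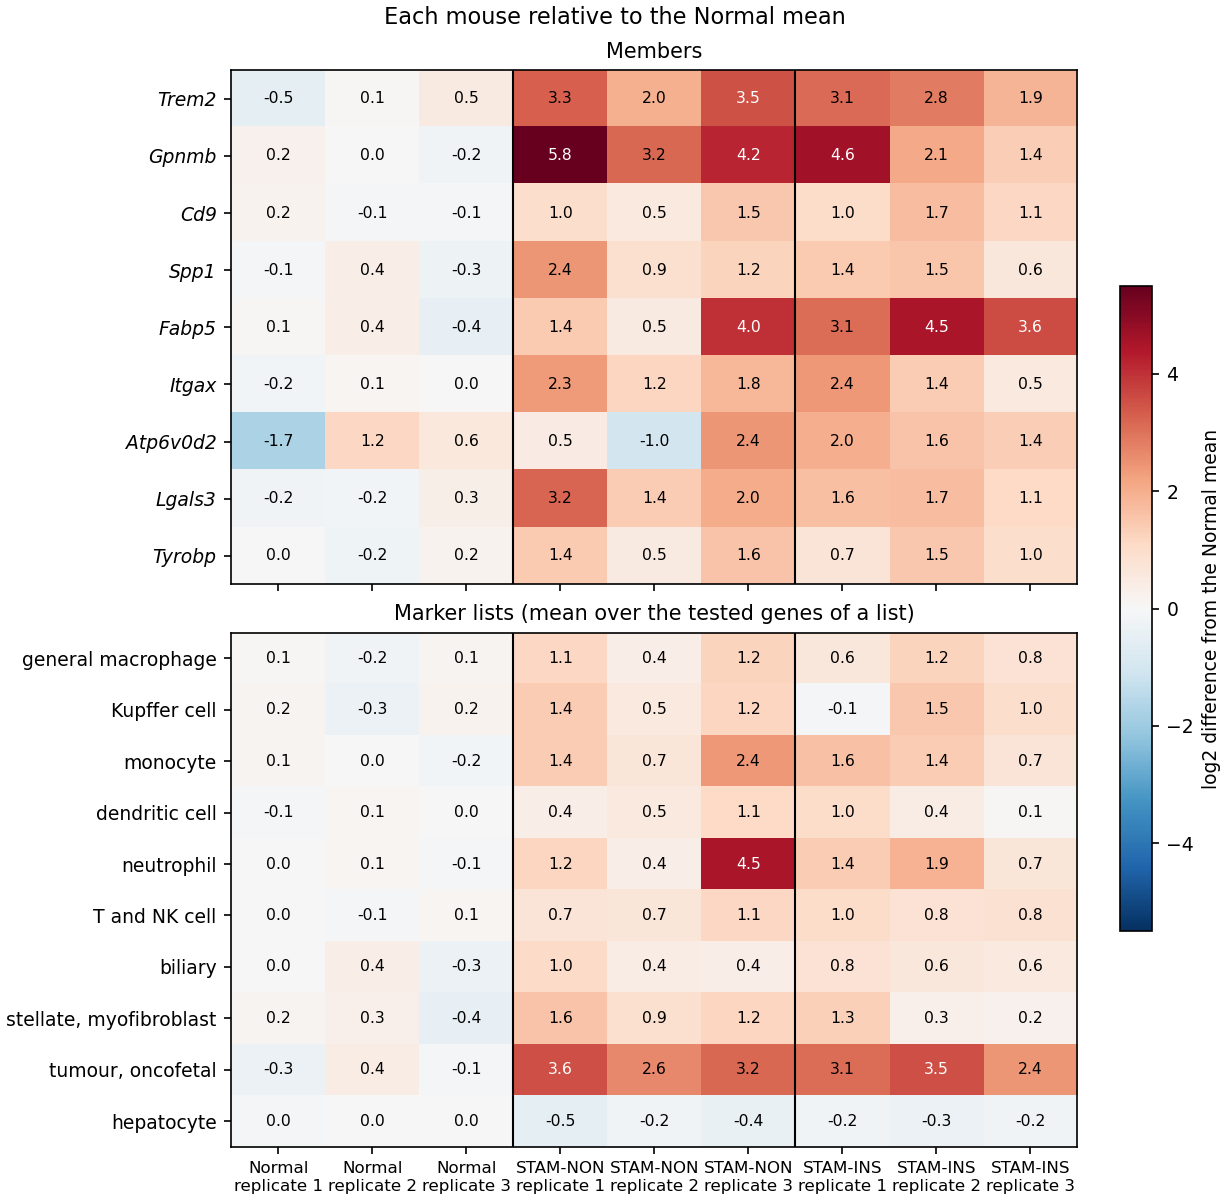
Log2 difference of each mouse (columns) from the mean of the 3 Normal mice, for the 9 members (upper panel) and for the mean over the tested genes of 10 marker lists (lower panel); red is higher and blue is lower than the Normal mean. The members are red in all 6 STAM mice except Atp6v0d2 in STAM-NON replicate 2, and the neutrophil list is at 4.5 in STAM-NON replicate 3 and at most 1.9 in the other mice.

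Most general macrophage markers moved in the same direction as the members. Of 13 such genes, all above background on all 9 arrays, 12 lay above 0 in STAM-NON against Normal and 1 below. That gene was Mertk, at -0.25, which was not called. In STAM-INS against Normal 11 lay above 0 and 2 below. Of the 13, 7 were called higher in STAM-NON than in Normal and 7 in STAM-INS than in Normal. Between the STAM groups 0 were called (0 with an unadjusted p under 0.05). Examples in STAM-NON against Normal were Laptm5 at 1.39 (SE 0.21), Fcgr1, the high-affinity IgG receptor, at 1.33 (SE 0.26), and Cybb, the phagocyte oxidase, at 1.22 (SE 0.24). The list mean ranged from 1.32 to 2.16 in STAM-NON, from 1.57 to 2.18 in STAM-INS and from 0.74 to 1.1 in Normal, which is a mean difference of 0.91 between STAM-NON and Normal. Among 7 Kupffer cell markers, 2 were higher in STAM-NON, Clec4f by 0.97 and Cd5l by 1.33, and of 7 monocyte markers 2 were higher, Cx3cr1 by 2.72 and Plac8 by 1.38. Of 7 dendritic cell markers, another source of Itgax, 0 were called (3 had an unadjusted p under 0.05). Of these 7, 5 lay above 0 in STAM-NON against Normal and 2 below. Their median difference was 0.89, beside -0.13 over all tested probes.

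Each member was then expressed relative to the mean of the 13 general macrophage markers on the same array, as a description chosen after the values were seen and with no test. Because that mean was itself higher in STAM mice, the subtraction lowers every probe there alike, and with it the share of all probes that lie higher. On this scale 4 of the 7 members above background on all arrays lay higher in every STAM-NON mouse than in every Normal mouse, where 2.18% of all tested probes did. These were Trem2, higher by 2.02, Lgals3 by 1.29, Itgax by 0.87 and Tyrobp by 0.26. Trem2 measured -1.11 ± 0.38 (SD, n = 3) in STAM-NON and -3.13 ± 0.54 (SD, n = 3) in Normal. For Cd9 the difference shrank to 0.09 and the groups overlapped, as they did for Spp1 (0.60), Fabp5 (1.08) and Atp6v0d2 (-0.29). In STAM-INS against Normal, 5 of the 7 did not overlap, against 2.04% of all probes, with Fabp5 higher by 2.82 and Trem2 by 1.73. Between the STAM groups 1 of the 7, Cd9, was higher in every STAM-INS mouse by 0.31, against 1.38% of all probes. Gpnmb also did not overlap between STAM-NON or STAM-INS and Normal on this scale, but no Normal array had it well above background.

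**Figure D4:**
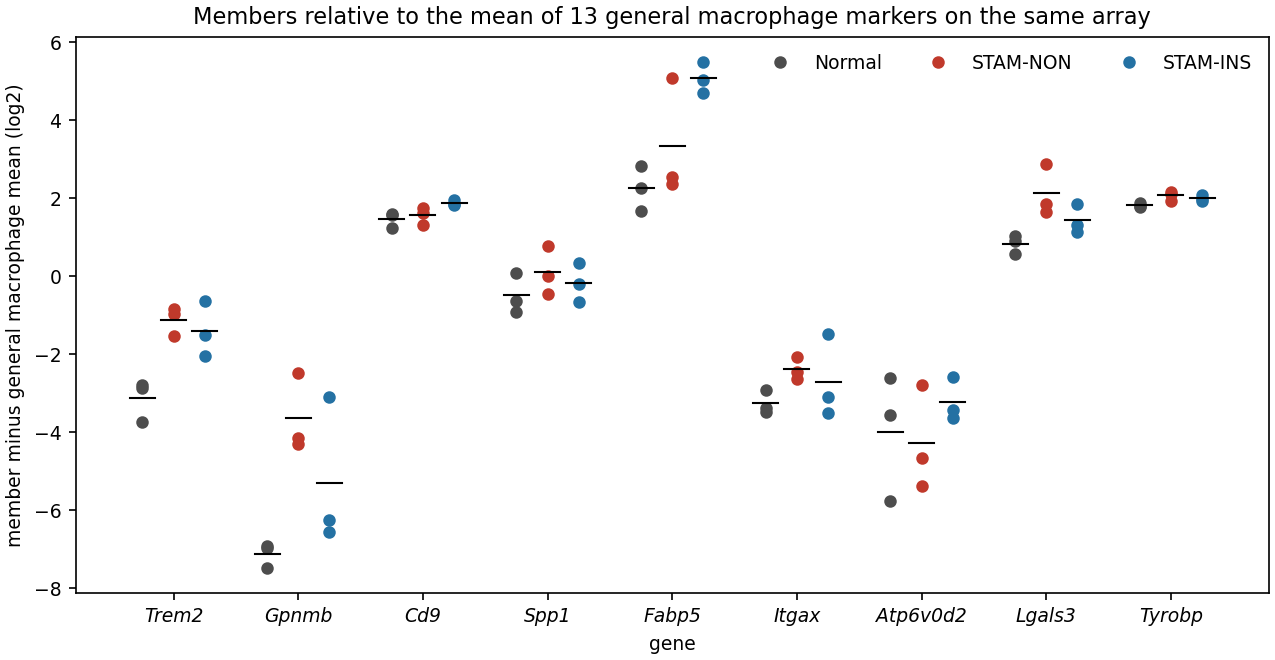
Centred log2 signal of each member minus the mean of 13 general macrophage markers on the same array (y axis, log2) for the mice of each group (points), with the group mean as a bar. Trem2 and Lgals3 of Normal mice sit below all 6 STAM mice, while the groups overlap for Cd9 and Spp1 of STAM-NON and Normal.

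Genes that act with Trem2 and Tyrobp were counted next. Of 17 tested, 9 were higher in STAM-NON than in Normal, 0 were lower, and the median was 1.06. They included Sirpb1a, another Tyrobp-coupled receptor, at 2.12 (SE 0.39, adjusted p = 0.0162 by limma), the phospholipase Plcg2 at 1.28 (SE 0.26, adjusted p = 0.0193 by limma), and the kinase Syk at 1.1 (SE 0.27, adjusted p = 0.0334 by limma). Vav1, an exchange factor downstream of Syk, was at 1.20 and the related adaptor Hcst (DAP10) at 1.16. In STAM-INS, 7 of the 17 were higher than in Normal, among them Sirpb1a at 1.86 and Plcg2 at 1.14, and 0 were called between the STAM groups (0 with an unadjusted p under 0.05). Several of these genes act in all myeloid cells and in lymphocytes.

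Of 25 other tested genes of the lipid-associated programme, 5 were higher and 1 was lower in STAM-NON than in Normal, with a median of 0.26. The higher genes were Cd63, given above, Lpl, the lipase that releases fatty acids from lipoproteins, at 1.96 (SE 0.33, adjusted p = 0.0129 by limma), Cd36, a fatty acid receptor, at 1.38 (SE 0.30, adjusted p = 0.0243 by limma), Ctsk, a cysteine protease, at 1.24 and the transcription factor Mitf at 0.71. The lower gene was Lamp2, a lysosomal membrane protein, at -0.50 (SE 0.13, adjusted p = 0.0377 by limma). Msr1 differed by 1.18 on its brighter probe, which was not called (adjusted p = 0.0798 by limma). Its dimmer probe was called higher, by 1.30 (adjusted p = 0.0403 by limma). Lpl alone was called in STAM-INS against Normal, at 1.60 (SE 0.33, adjusted p = 0.0198 by limma). One gene, Ctss, is also on the general macrophage list, and hepatocytes express many lysosomal genes of this list, so that their signal in whole liver is not that of macrophages alone.

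Markers of other cell types moved between the same groups, and their part in the member differences was not tested. In STAM-NON against Normal, 2 of 6 biliary markers were higher (Krt7 at 1.55 and Sox9 at 0.96), as were 1 of 8 stellate and myofibroblast markers (Timp1, at least 7.65-fold) and 3 of 4 tumour and oncofetal markers (Ly6d at 6.17, Afp at 3.10 and Cd24a at 2.34). Of the 8 tumour and oncofetal genes listed only 4 were tested. Gpc3, Igf2bp3 and Dlk1 did not pass the filter, and H19 matched no probe. The list mean of the biliary markers ranged from -1.65 to -0.98 in STAM-NON and from -2.36 to -1.66 in Normal. That of the tumour list ranged from 1.78 to 2.71 in STAM-NON and from -1.15 to -0.44 in Normal. Of 5 neutrophil markers 0 were called (4 had an unadjusted p under 0.05), and their list mean was 4.10 in 1 STAM-NON mouse, replicate 3, and -0.05 and 0.78 in the others. Of 9 listed T and NK cell markers 6 were tested and 2 were higher, Gzmb at least 3.3-fold and Gzma by 2.22. Of the 6, 3 lay above 0 and 3 below it, with Cd4 at -0.46 and not called. Nkg7 differed by -0.07 on its brighter probe, which was not called. Its dimmer probe was called higher, by 1.5 (adjusted p = 0.0146 by limma). Timp1, Gzmb and Krt7 passed the filter only through the STAM groups, where they were high. Their calls thus add no support of their own. Timp1 and Gzmb were above background on 0 Normal arrays and Krt7 on 1. Hepatocyte markers had 1 of 10 called lower, Cps1 at -0.67, and their list mean was 8.37 to 8.66 in STAM-NON against 8.81 to 8.88 in Normal. Cyp2e1 differed by -0.88 on its brighter probe, which was not called. On its dimmer probe it was called lower, by -1.32 (adjusted p = 0.0446 by limma).

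The 5 genes whose pattern over the 9 arrays was most like that of Trem2 were Amz1, Oasl2, Phf11d, Fxyd5 and Ccdc88b, with Pearson r from 0.986 to 0.991. This is a description over 9 arrays that share slides and groups. Over the 6 STAM arrays alone the same 5 genes had r from 0.924 to 0.981. In STAM-NON against Normal they were higher by 1.19 (Phf11d) to 2.0 (Amz1), and between the STAM groups they differed by -0.31 (Fxyd5) to 0.02 (Oasl2).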

How the data were processed

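Whole-liver RNA of 9 male mice was hybridised to Agilent SurePrint G3 Mouse GE 8x60K arrays with Cy3 label. The labels and the array methods name different RNA extraction kits. The deposited files hold spot intensity on a linear scale, made by the authors with Feature Extraction 11.5.1.1 (background-subtracted processed signal, not normalised between arrays), with flags. Each array held 59305 non-control spots of 55681 probes, with 161 to 217 flagged spots and no saturated one.

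The 75th percentile of each array was subtracted on the log2 scale, outlier-flagged spots were dropped, and replicate spots of a probe were averaged. Testing required a share of 0.5 or more of a probe's spots well above background on every array of at least 1 group (26277 probes). Accessions without versions were matched to a RefSeq table of GRCm38.p6, for names only because the array was designed on mm9, which named 27656 probes. Groups and replicates came from the sample labels. All 9 arrays were fitted together in limma 3.58.1 (R 4.3.3, lmFit and eBayes, two-sided, 6 residual degrees of freedom), which was tested on simulated data. P-values set a difference against the spread between these mice, whose number limits the precision.

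Alternatives covered background correction (normexp, offset 50, on the median spot signal, since no mean signal was used here), quantile normalisation, centring, the filter, flags, the variance model, the groups fitted, an unpaired t test, replicate and slide row blocks, and leaving out each mouse. The study's methods name the unpaired t test among those for comparing 2 groups in general, and name no test for the arrays. For each gene the tested probe with the highest mean was used. All members were named, and so were the 5 genes most like Trem2. Of each further list, genes were named from up to 4 with the largest difference in STAM-NON against Normal, mostly those called. Among those not called and not named above were Chil3 (3.39), Fabp3 (3.17), Marco (2.07) and Col1a1 (1.89). Syk, Hcst, Mitf, Lamp2, Clec4f, Nkg7, Mertk, Msr1 and Itgav were added after their values were seen. The members and lists were chosen with earlier results of these data known. Limits for a group below background set each of its arrays at its lowest signal among probes well above background.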

Additional observations from a re-analysis of the deposited data

Results flagged for a closer look

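The second Atp6v0d2 probe did not pass the filter and was not tested. It was well above background on 3 arrays, STAM-NON replicates 1 and 3 and STAM-INS replicate 1, and on 0 of the 3 Normal arrays, which brought it here as a signal outside the tested probes. Its centred log2 signal was -4.60, -5.90 and -2.78 in STAM-NON, -3.27, -4.53 and -5.91 in STAM-INS, and -5.75, -3.71 and -4.83 in Normal. The value of Normal replicate 2 was above those of 2 STAM-NON mice, so that the groups overlapped. The 3 arrays are those with the highest shares of spots above background, and the part of that share in the result was not tested. On the tested probe of the gene, STAM-NON replicate 3 and STAM-INS replicate 1 were also the highest of the 9 mice.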

How the results depend on the processing

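In STAM-NON against Normal the 7 members called became 4 with normexp and quantile normalisation, 4 with median centring and 4 with only the 2 groups fitted. In these fits 13.4%, 10.1% and 8.3% of all probes were called, in place of 16.1%. They became 0 with no filter on dim probes (8 with an unadjusted p under 0.05, 0.449% of all probes called). With the unpaired t test they became 0 (7 with an unadjusted p under 0.05, 0.114% of all probes called). They became 0 with the slide row as a block (0.0571% of all probes called). When 1 mouse was left out they became 1 to 8 (3.56% to 18.7% of all probes called). In STAM-INS against Normal the 4 became 0 with no filter (8 with an unadjusted p under 0.05, 1.03% of all probes called). They became 0 to 5 when 1 mouse was left out (3.76% to 16.4% of all probes called). No member was called lower in either comparison, nor in any direction between the STAM groups, under any setting run. The replicate numbers did not pair the samples (correlations of deviations between equal numbers from -0.29 to 0.15), and with them as a block 3 and 2 members were called against Normal in STAM-NON and STAM-INS (7.67% and 7.12% of all probes). Against Normal only Atp6v0d2 changed sign, in STAM-NON, at -0.29 without STAM-NON replicate 3 and -0.25 without Normal replicate 1 (range -0.29 to 1.43 with 1 mouse left out). In STAM-INS against STAM-NON, where nothing was called, the slide row block turned Trem2 to 0.19, Gpnmb to 0.25 and Itgax to 0.61. These values rest on STAM-INS replicate 1, the one STAM-INS array in the row of the STAM-NON arrays. With 1 mouse left out, Trem2 ranged from -0.80 to 0.05 and Itgax from -0.82 to 0.10 (both positive without STAM-INS replicate 3), Spp1 from -0.62 to 0.15 (positive without STAM-NON replicate 1), and Tyrobp from -0.44 to 0.10 (positive without STAM-NON replicate 1, STAM-NON replicate 3 or STAM-INS replicate 1). The cause was not tested. Gpnmb in STAM-NON against Normal was 1.26 with normexp, whose offset of 50 compresses dim signals. The median of all probes in STAM-NON against Normal was -0.13, and it was -0.30 with median centring, 0.02 on the spike-in controls and 0.03 when detected probes set the percentile, with 1655 of 4220, 963 of 2650, 1571 of 2289 and 2080 of 3144 calls higher. Slide as a random block was not run, since each group lies on 1 slide.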
